A study of Mus musculus with 9 samples.

Results

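MicroRNA genes whose array signal reached the median of all probe sets were examined in sorted mouse microglia. The genes were chosen by their measured level. A probe set was taken when its only gene symbol named a microRNA (Mir followed by a digit, or let) and its mean over the 9 arrays was at or above 5.35 on the deposited log2 scale, the median of all probe set means, and the brightest probe set stood for each gene. Of 22180 genes tested, 483 were microRNA genes by symbol, and 139 of these, 28.8%, reached that level. Among all genes the share was 52.0% (11532 genes). A high mean level was therefore a condition of entry and not a finding, while the comparison of genotypes was not used by the rule. Another 136 probe sets carried a microRNA symbol together with other symbols, 65 of them at or above the level, and were not counted because no one gene can be read from them. One name that the rule admits, Mir99ahg, belongs to a long noncoding host transcript and not to a hairpin. The host transcript Mir9-3hg (mean 4.27) is counted among the 483 by its symbol too.

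Microglia, the resident macrophages of the brain, were sorted by FACS from brains of female C57Bl/6 mice at 24 to 28 weeks of age, and total RNA was amplified, labelled with biotin and hybridised to 9 one-colour arrays. Wild type mice (3 arrays) served as the reference. FAD mice (3 arrays) carried a familial Alzheimer's disease transgene background (5X FAD) and floxed alleles of Hdac1 and Hdac2, written FAD Hdac1/2fl/fl, with no Cre named. FAD DKO mice (3 arrays) carried Cx3cr1CreERT2 as well, a tamoxifen-inducible Cre placed under the control of the fractalkine receptor gene Cx3cr1, which microglia express. Mice of all 3 genotypes received 8 mg tamoxifen at 6 weeks of age. FAD and FAD DKO thus differ in the deletion of Hdac1 and Hdac2 and in the Cre allele, which cannot be told apart, and wild type differs from FAD in the transgenes and the floxed alleles. The labels do not say that the arrays of a genotype come from separate animals, so each p-value measures the spread among these samples, which may be technical.

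MicroRNA genes are transcribed as long primary transcripts. Drosha with its partner Dgcr8 cuts out a hairpin in the nucleus, exportin 5 carries it to the cytoplasm, and Dicer1 trims it to a duplex from which an Argonaute protein keeps a single strand. The bases near the 5′ end of that strand, the seed, pair with target messenger RNAs and lower their stability or translation. In macrophages and microglia, microRNAs such as miR-155, miR-146a and miR-142 are known for tuning inflammatory responses, and the Mir17 to Mir92-1 cluster for supporting proliferation and survival of blood cells. Because whole amplified RNA was hybridised, a microRNA probe set may read the mature strand, the hairpin or the primary transcript. These forms were not separated, and the values below are called signals of a gene.

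Of the 139 genes, 115 had a mature sequence in the RefSeq tables of assembly GRCm38.p6. The sequences shown are those of the cluster that the results turn on, and of the families whose members could be compared with each other. They are written 5′ to 3′, with the seed (bases 2 to 8) in capitals. The first 3 come from neighbouring hairpins on the plus strand of chromosome 14. Mir17 lies at chr14:115043671-115043754, Mir18 at chr14:115043851-115043946 and Mir20a at chr14:115044157-115044263, all within 593 bases.
mmu-miR-17-5p: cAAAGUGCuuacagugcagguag
mmu-miR-18a-5p: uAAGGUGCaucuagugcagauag
mmu-miR-20a-5p: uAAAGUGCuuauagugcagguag
Counted from 1 at the 5′ end, miR-17-5p and miR-20a-5p differ at 2 positions (C1U and C12U) and share their seed. Between miR-17-5p and miR-18a-5p there are 6 differences (C1U, A4G, U9A, A11C, C12U and G20A), of which A4G lies in the seed.

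Among the measured genes, 11 seeds were shared by 2 or more genes, 21 genes in all. The largest such family was miR-181, with 4 genes and the seed ACAUUCA. Mir181a-2 and Mir181b-2 lie together on chromosome 2, and Mir181c and Mir181d on chromosome 8.
mmu-miR-181a-5p: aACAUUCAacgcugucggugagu
mmu-miR-181b-5p: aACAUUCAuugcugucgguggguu
mmu-miR-181c-5p: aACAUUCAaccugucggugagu
mmu-miR-181d-5p: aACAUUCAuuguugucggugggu
Mir15a and Mir16-1 are neighbours on chromosome 14, and Mir103-2 (chr2:131288052-131288137, plus strand) and Mir107 are paralogues in different genes.
mmu-miR-15a-5p: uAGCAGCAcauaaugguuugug
mmu-miR-16-5p: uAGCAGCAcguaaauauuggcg
mmu-miR-103-3p: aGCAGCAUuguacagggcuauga
mmu-miR-107-3p: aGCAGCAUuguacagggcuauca
Outside a common seed, miR-15a-5p and miR-16-5p differ at 6 positions (A10G, U14A, G15U, G16A, U19G and U21C), while miR-103-3p and miR-107-3p differ at 1 (G22C). For 14 of the genes, among them Mir103-2, Mir16-1, Mir181a-2, Mir181b-2, Mir7-1 and Mir9-3, a mature strand is identical to that of another gene, so a signal from mature RNA could not be assigned to a single copy.

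The targeted genes were read first as a check of the labels. The mean signals of Hdac1 were 8.44, 8.12 and 7.56 for wild type, FAD and FAD DKO, and those of Hdac2 were 8.29, 8.48 and 7.80. The FAD DKO arrays were the lowest 3 for both, so the labels were not contradicted, although the probes may lie outside the deleted parts. Neither passed in FAD DKO minus FAD (limma, Benjamini-Hochberg adjusted p = 0.376 and 0.159). Cx3cr1, the gene at the Cre, had means of 12.20, 12.12 and 11.88, and did not pass either (adjusted p = 0.383). The mean signal of 9 microglial markers was 10.99 to 11.02 on the wild type arrays, 10.85 to 10.93 on the FAD arrays and 10.81 to 10.92 on the FAD DKO arrays. In FAD minus wild type 0 of these 9 genes were above 0 (median -0.09), and limma called 0 of them. At an unadjusted p under 0.05, 1 was lower (11.1%, against 4.02% of all genes). In FAD DKO minus wild type 7 were below 0 (median -0.05) and 0 were called. There 3 were lower at that threshold (33.3%, against 4.19% of all genes) and 0 higher. In FAD DKO minus FAD 6 were above 0 (median 0.04). At that threshold 1 was higher and 1 lower (11.1% each, against 3.69% and 4.41% of all genes). Of 5 lymphocyte markers, 5 were above 0 in FAD DKO minus FAD (median 0.16), and limma called 0. Of these 2 were higher at that threshold (3.69% of all genes) and 0 lower. In FAD minus wild type 2 of the 5 were lower (4.02% of all genes) and 0 higher. In FAD DKO minus wild type 1 was higher and 1 lower (20.0% each, against 3.95% and 4.19% of all genes). Of 4 endothelial markers, 2 were lower and 0 higher in each comparison with wild type, with 0 either way in FAD DKO minus FAD. Of 5 astrocyte markers, 2 were lower (40.0%, against 4.02% of all genes) and 0 higher in FAD minus wild type. In FAD DKO minus FAD 1 astrocyte marker was higher and 1 lower (20.0% each, against 3.69% and 4.41%). Of 5 neuronal markers, 1 (Tubb3) was higher in FAD minus wild type (20.0%, against 4.41%). Of 5 oligodendrocyte markers, 1 (Mbp) was lower in FAD DKO minus FAD (20.0%, against 4.41%). The array means of the marker lists of neurons, astrocytes, oligodendrocytes, endothelial cells, lymphocytes and border macrophages lay between 4.75 and 5.60. Single markers were brighter, among them Cd79b (7.02), Pecam1 (6.39) and Mrc1 (6.05) by their means over the 9 arrays. Cd79b gave -0.42 in FAD minus wild type (limma adjusted p = 0.436) and Pecam1 -0.45 in FAD DKO minus wild type (0.219). Monocyte and neutrophil markers varied most, with means over 7 genes of 6.94 to 7.64 in wild type, 7.63 to 7.82 in FAD and 6.31 to 8.40 in FAD DKO, where replicate 1 was the lowest and replicate 2 the highest of all arrays. Each FAD array was within or above the wild type range for that list, with a median change of 0.38 in FAD minus wild type and of -0.32 in FAD DKO minus FAD over the 7 genes, 0 of which passed in limma or had an unadjusted p under 0.05. The part of any of these cells in the microRNA values was not tested. In sorted cells measured in bulk, fewer cells of a kind and less RNA per cell cannot be told apart.

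The 139 genes spanned mean signals from 5.37 to 11.87, with a median of 6.59. There were 26 genes at 8 or more, 66 between 6 and 8, and 47 below 6. The brightest were Mir5099 (11.87), Mir449b (11.37), Mir5125 (10.39), Mir692-1 (10.14) and Mir703 (10.11), followed by Mir761, Mir466h, Mir1195, Mir103-2 and Mir5123 at 9.10 to 10.07. Each value is that of 1 probe set, and the order of probe sets is not an order of RNA amounts. The last genes inside the limit were Mir3090 (5.37), Mir5124a (5.38) and Mir494 (5.39), and the first outside it were Mir375 (5.34), Mir128-1 (5.33) and Mir542 (5.32). All 3 group means reached the limit for 133 genes and all 9 arrays for 111. The other 6 genes, Mir680-1, Mir669h, Mir344d-2, Mir494, Mir5124a and Mir3090, reached it in 2 of the 3 groups. Arrays of 1 genotype differed more for these genes than for the genes at large that reached the same limit, with a median SD within a group of 0.196 against 0.106 over all genes at or above 5.35. It was 0.187 for the 58 small nucleolar RNA genes at or above the limit and 0.22 for the microRNA genes below it.

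In FAD DKO minus FAD, 1 microRNA gene passed the test, Mir18, whose signal fell by 0.87 on the log2 scale, to 0.547 of its FAD level. Mir18 encodes miR-18a, the second hairpin of the Mir17 to Mir92-1 cluster. The signals were 6.64, 6.65 and 6.68 on the wild type arrays, 7.09, 7.08 and 7.0 on the FAD arrays and 6.26, 6.04 and 6.25 on the FAD DKO arrays. The 3 genotypes did not overlap: FAD arrays were the highest, wild type arrays lay between, and FAD DKO arrays were the lowest. The fall from FAD to FAD DKO had an SE of 0.0756 and an adjusted p of 0.0121 in limma, with Benjamini-Hochberg adjustment over all 22180 genes. Neither of the other comparisons passed for Mir18, at 0.40 in FAD minus wild type (adjusted p = 0.17) and -0.47 in FAD DKO minus wild type (adjusted p = 0.0684). FAD minus wild type and FAD DKO minus FAD use the same FAD arrays with opposite sign, so a high FAD value alone moves them in opposite directions.

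The call depended on single arrays. Leaving out 1 array at a time left the change of Mir18 between -0.91 and -0.80 and kept the call in 5 of 9 fits. It was lost without wild type replicate 3 (adjusted p = 0.0538), FAD replicate 1 (0.0829), FAD replicate 2 (0.0889) or FAD DKO replicate 3 (0.0688). It was kept without FAD DKO replicate 1 (adjusted p = 0.0362) and without FAD DKO replicate 2 (-0.80, adjusted p = 0.0475). These arrays had the lowest and the highest monocyte and neutrophil markers. The part of such cells in Mir18 was not tested by leaving out an array, as the other arrays stay in the fit. With the arrays of FAD and FAD DKO alone in the fit, the adjusted p was 0.192.

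Its neighbours in the cluster were lower in FAD DKO too, without passing. Mir17, whose mature strand miR-17-5p is known for repressing cell cycle inhibitors, had signals of 6.69, 6.89 and 6.56 on the wild type arrays, 7.16, 6.78 and 6.92 on the FAD arrays and 6.49, 6.09 and 5.92 on the FAD DKO arrays. Every FAD DKO array lay below every other array, while wild type and FAD overlapped. Its change in FAD DKO minus FAD was -0.79 (SE 0.16, limma adjusted p = 0.241), and in FAD DKO minus wild type -0.55 (adjusted p = 0.359). Mir20a, which shares the seed of Mir17, had signals of 6.15, 5.84 and 5.80 on the wild type arrays, 6.05, 5.96 and 6.21 on the FAD arrays and 5.97, 5.30 and 4.88 on the FAD DKO arrays. Here replicate 1 of FAD DKO lay among the other arrays and replicates 2 and 3 below them, and the change of -0.69 (SE 0.236) had an adjusted p of 0.504.

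Further probe sets of the same cluster did not enter the 139 genes but lie among them in the genome. Mir19a, between Mir18 and Mir20a, had a mean signal of 2.61, well under the limit; its values were 2.59, 2.59 and 2.44 on the wild type arrays, 3.28, 2.55 and 2.67 on the FAD arrays and 2.69, 2.44 and 2.22 on the FAD DKO arrays, and the groups overlapped. A probe set listed for the host transcript Mir17hg together with Mir19b-1 and Mir92-1 had 6.20, 6.20 and 6.17 on the wild type arrays, 6.65, 6.51 and 6.20 on the FAD arrays and 5.85, 5.61 and 5.74 on the FAD DKO arrays. Its FAD DKO arrays were below all others. When every probe set was fitted, its change in FAD DKO minus FAD was -0.72 (SE 0.12, limma adjusted p = 0.249 over 41345 probe sets), and in FAD DKO minus wild type -0.46 (adjusted p = 0.387). The probe sets of this cluster thus had changes from -0.87 to -0.39 in FAD DKO minus FAD, of which that of Mir18 passed.

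**Figure D1:**
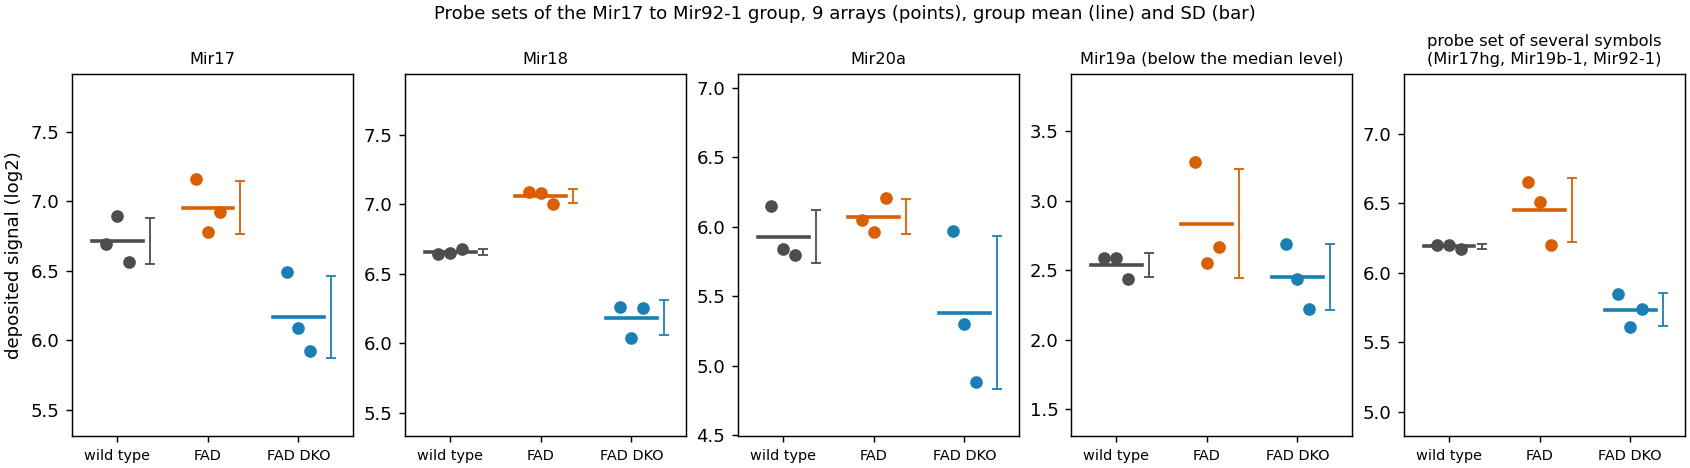
Deposited log2 signal (vertical axis) of 5 probe sets of the Mir17 to Mir92-1 cluster in wild type, FAD and FAD DKO, with 1 point per array, a line for the mean and a bar for the SD of 3 arrays; each panel has its own axis of equal length. Mir18 separates the 3 genotypes (means 6.66, 7.06 and 6.19), while FAD DKO replicate 1 of Mir20a (5.97) lies among the other arrays.

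Over all 139 genes, differences between genotypes were small. In FAD minus wild type, limma called 0 of 139 microRNA genes at an adjusted p under 0.05, against 9 of all genes (0.0406%). An unadjusted p under 0.05 was reached by 4 higher genes (2.88%; 4.41% of all genes) and 14 lower ones (10.1%; 4.02% of all genes). Of the 139 changes, 52 were above 0 and 87 below, with a median of -0.07, beside -0.01 over all genes and 0.01 over genes at or above 5.35. The extremes were Mir1931 at -0.49 (adjusted p = 0.571) and Mir1949 at 0.45 (adjusted p = 0.585).

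In FAD DKO minus FAD, the call of Mir18 made 1 of 139, against 5 of all genes (0.0225%). An unadjusted p under 0.05 was reached by 13 higher genes (9.35%; 3.69% of all genes) and 8 lower ones (5.76%; 4.41% of all genes). There were 85 changes above 0 and 54 below, with a median of 0.04, beside 0.01 over all genes and -0.01 over genes at or above 5.35. Both comparisons use the FAD arrays. Mir344d-2, Mir680-1 and Mir3090, of the 13 higher genes, had a FAD mean under the limit and met it through the other groups, as did Mir344d-2 of the 14 lower genes in FAD minus wild type. Over the 133 genes with every group mean at the limit, a set formed after the values were seen, there were 4 higher and 13 lower genes at that threshold in FAD minus wild type and 10 and 8 in FAD DKO minus FAD, with medians of -0.07 and 0.04. In FAD DKO minus wild type, where those arrays do not enter the difference, limma called 0 microRNA genes against 31 of all genes (0.14%). Here the unadjusted threshold was met by 4 higher genes (2.88%; 3.95% of all genes) and 9 lower ones (6.47%; 4.19% of all genes), and the median was -0.03 with 61 changes above 0. No gene of the 139 differed by 1 or more in any of these comparisons, and 133 of them differed by less than 0.5 in all 3.

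**Figure D2:**
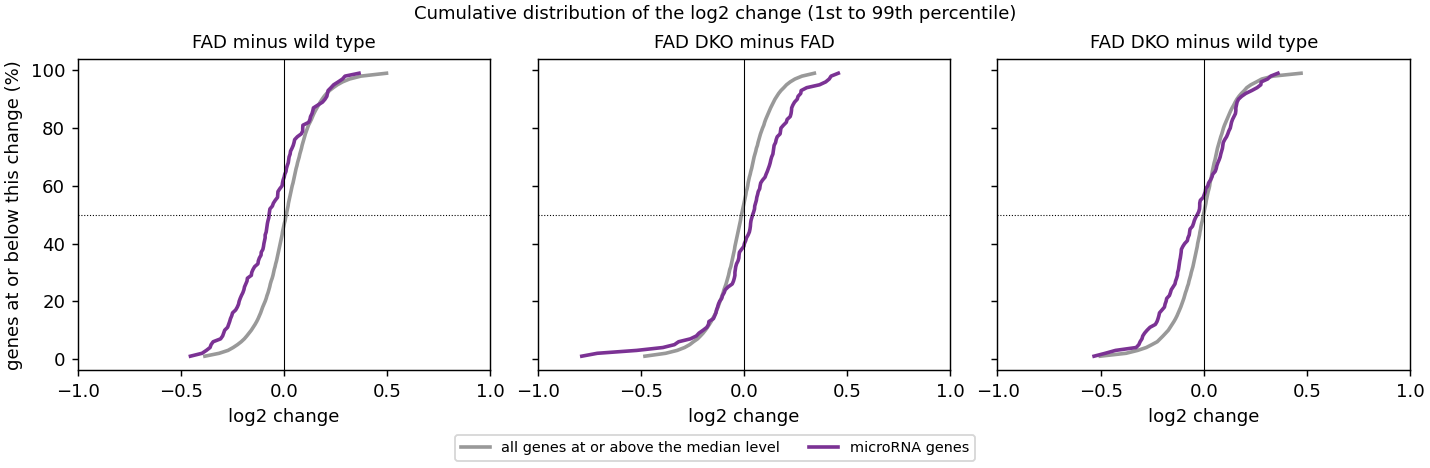
Cumulative share of genes (vertical axis, percent) at or below a given log2 change (horizontal axis) for the 139 microRNA genes and for the 11532 genes at or above the median level, with 1 panel per comparison, from the 1st to the 99th percentile. The microRNA curve crosses 50% at -0.07 in FAD minus wild type, at 0.04 in FAD DKO minus FAD and at -0.03 in FAD DKO minus wild type.

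The 344 microRNA genes under the limit, counted by symbol and with the host transcript Mir9-3hg among them, were read in the same way. Among them limma called 0 in each comparison. An unadjusted p under 0.05 was reached by 11 higher (3.20%; 4.41% of all genes) and 14 lower genes (4.07%; 4.02%) in FAD minus wild type, by 9 (2.62%; 3.69%) and 4 (1.16%; 4.41%) in FAD DKO minus FAD, and by 8 (2.33%; 3.95%) and 8 (2.33%; 4.19%) in the comparison of FAD DKO with wild type. Their median changes were 0.00, 0.01 and -0.00. The 58 small nucleolar RNA genes at or above the limit are another class of short noncoding RNA, which guides chemical modification of ribosomal RNA. Their median was -0.27 in FAD DKO minus FAD, with 48 of 58 below 0, against 10364 of 22180 genes. Of them 1 was called, against 0.0225% of all genes. At an unadjusted p under 0.05, 25 were lower (43.1%, against 4.41% of all genes) and 0 higher (against 3.69%). The median over the 139 microRNA genes was 0.04 there, beside 0.01 over all genes. No test of the difference between these lists was made.

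Outside the cluster, small p-values without a call were found for Mir103-2, Mir1949, Mir5123, Mir874, Mir202, Mir674 and Mir3108, among others. Mir103-2, a copy of the gene for miR-103 that lies in Pank2, had signals of 8.97, 8.99 and 8.74 on the wild type arrays, 9.08, 9.21 and 9.19 on the FAD arrays and 9.24, 9.32 and 9.31 on the FAD DKO arrays. The 3 genotypes did not overlap, with wild type lowest and FAD DKO highest. Its change was 0.26 in FAD minus wild type (adjusted p = 0.493), 0.13 in FAD DKO minus FAD (adjusted p = 0.691) and 0.39 in FAD DKO minus wild type (SE 0.0831, limma adjusted p = 0.157). Of the alternatives run, 1 let the last pass, in which the variance could follow the level and outlying genes weighed less (adjusted p = 0.0476). Its paralogue Mir107, which lies in Pank1, a gene of the same enzyme family, overlapped between all genotypes, with changes of -0.21, 0.03 and -0.18.

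Mir1949 had signals of 5.85, 5.87 and 5.95 on the wild type arrays, 6.53, 6.50 and 5.99 on the FAD arrays and 5.95, 5.25 and 5.47 on the FAD DKO arrays. FAD replicates 1 and 2 stood above the rest, FAD replicate 3 lay close to wild type, and no FAD DKO array reached a FAD array. The change was -0.78 in FAD DKO minus FAD (SE 0.189, adjusted p = 0.309). Mir5123 had signals of 9.23, 9.46 and 9.48 on the wild type arrays, 9.0, 8.92 and 9.19 on the FAD arrays and 9.0, 8.98 and 8.68 on the FAD DKO arrays. Wild type arrays were above all others, and FAD and FAD DKO overlapped. Its change was -0.50 in FAD DKO minus wild type (SE 0.117, adjusted p = 0.204).

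In several genes the FAD arrays were the lowest. Mir874, within Klhl3, had signals of 7.08, 6.68 and 6.61 on the wild type arrays, 6.16, 6.48 and 6.30 on the FAD arrays and 6.90, 6.73 and 6.69 on the FAD DKO arrays. Mir202 had 6.75, 6.73 and 6.56 on the wild type arrays, 6.35, 6.37 and 6.45 on the FAD arrays and 6.76, 6.56 and 6.79 on the FAD DKO arrays. For both genes every FAD array lay below all 6 others. Mir674 had 7.68, 7.80 and 7.90 on the wild type arrays, 7.57, 7.51 and 7.40 on the FAD arrays and 7.79, 7.68 and 7.70 on the FAD DKO arrays. Mir3108, within Zfhx3, had 7.31, 7.08 and 7.06 on the wild type arrays, 6.72, 6.76 and 6.78 on the FAD arrays and 7.07, 6.85 and 7.05 on the FAD DKO arrays. For Mir674 and Mir3108 as well, the lowest 3 values were those of the FAD arrays.

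In FAD minus wild type the changes of these 4 genes ran from -0.48 (Mir874, SE 0.136, adjusted p = 0.436) to -0.29 (Mir202, SE 0.0861, adjusted p = 0.458), with Mir674 at -0.30 (adjusted p = 0.398) and Mir3108 at -0.39 (adjusted p = 0.291). From FAD to FAD DKO they were 0.46 for Mir874 (adjusted p = 0.407), 0.31 for Mir202 (0.383), 0.23 for Mir674 (0.504) and 0.24 for Mir3108 (0.546). In FAD DKO minus wild type, which does not use the FAD arrays in the difference, the 4 changes lay between -0.16 and 0.02, with adjusted p-values from 0.712 to 0.984. Mir3110, Mir1943 and Mir1190 also had their lowest mean in FAD, at -0.35, -0.26 and -0.22 in FAD minus wild type and 0.28, 0.49 and 0.28 in FAD DKO minus FAD, and none of these passed. Mir5125, among the brightest, had 10.65, 10.53 and 10.47 on the wild type arrays, 9.95, 10.16 and 10.46 on the FAD arrays and 10.44, 10.41 and 10.44 on the FAD DKO arrays. FAD replicates 1 and 2 of this gene were the lowest, FAD replicate 3 lay at the level of FAD DKO, and the change in FAD minus wild type was -0.36 (adjusted p = 0.501).

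The remaining genes had small p-values in comparisons with FAD DKO and did not pass. Mir344d-2, close to the limit, had 5.19, 5.70 and 5.57 on the wild type arrays, 5.24, 5.03 and 5.22 on the FAD arrays and 5.53, 5.68 and 5.63 on the FAD DKO arrays. FAD DKO lay above FAD but within the wild type range. The FAD mean of this gene was under the limit, which it met through the other arrays, so its values are a description. Against wild type, FAD DKO gave 0.36 for Mir5120 (adjusted p = 0.418) and 0.28 for Mir185, a gene of the chromosome region deleted in human DiGeorge syndrome (adjusted p = 0.491). Mir99a and Mir701 each gave -0.30 (adjusted p = 0.512 and 0.516). The wild type and FAD DKO arrays did not overlap for Mir5120, Mir185 and Mir99a and overlapped for Mir701.

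**Figure D3:**
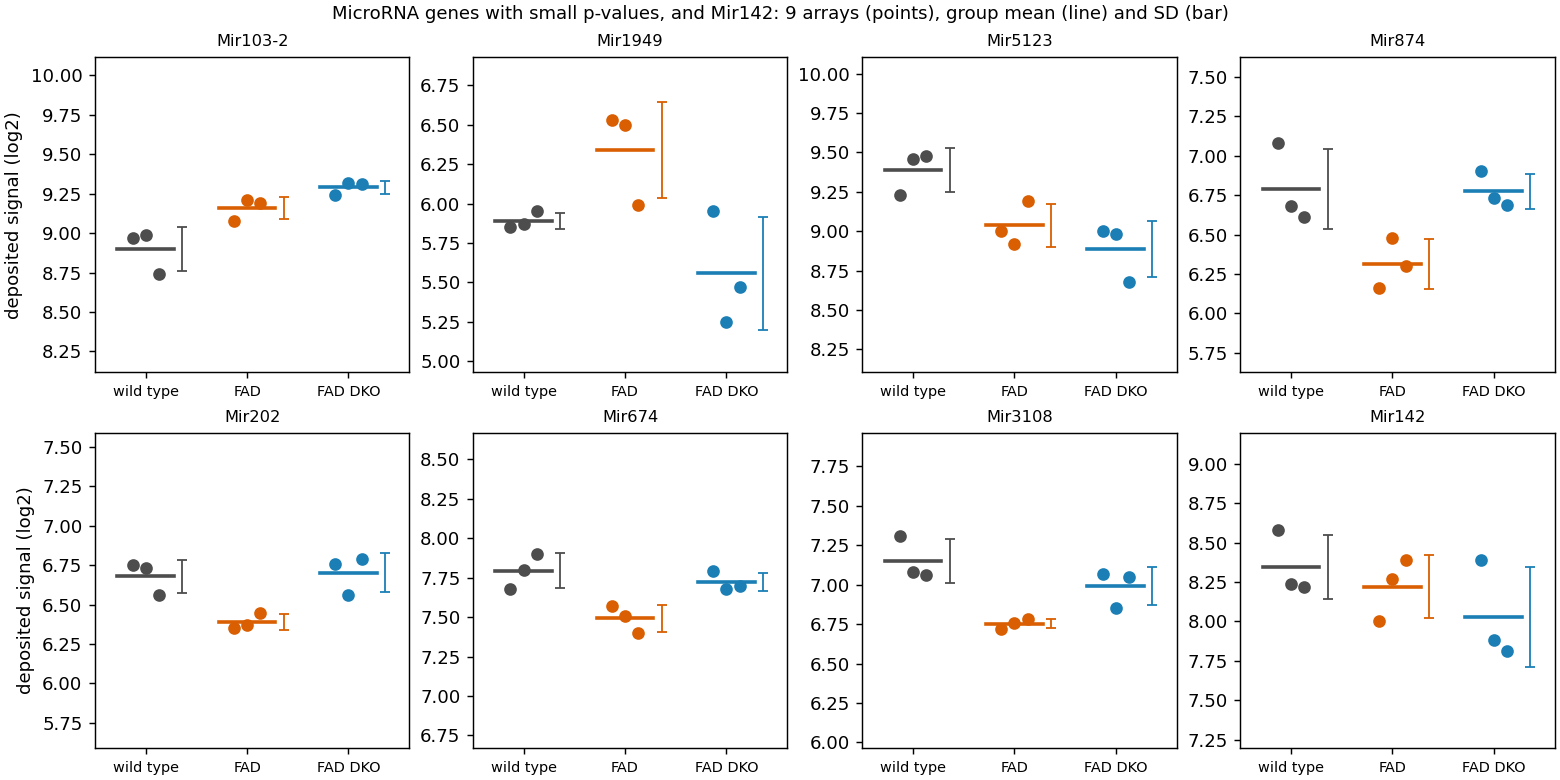
Deposited log2 signal (vertical axis) of 7 microRNA genes with small p-values and of Mir142 in wild type, FAD and FAD DKO, with 1 point per array, a line for the mean and a bar for the SD of 3 arrays; each panel has its own axis of equal length. Mir874, Mir202, Mir674 and Mir3108 have their 3 lowest arrays in FAD, Mir103-2 has its lowest in wild type (8.74 to 8.99), and the genotypes overlap for Mir142.

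MicroRNA genes that lie together can be read as groups. Besides the chromosome 14 cluster there were 4 such groups with 3 or more of the 139 genes. On chromosome 8, Mir23a and Mir27a form a cluster with Mir24-2, known in myeloid cells for acting on inflammatory signalling, and follow Mir181d and Mir181c in the RefSeq order. Mir181d (chr8:84178716-84178787) and Mir181c lie on the minus strand, Mir23a (chr8:84208518-84208592) and Mir27a on the plus strand. This group is thus one of genome order and not of a shared strand. Mir23a had signals of 6.91, 7.55 and 6.95 on the wild type arrays, 7.30, 7.54 and 7.49 on the FAD arrays and 7.17, 7.05 and 6.49 on the FAD DKO arrays. All FAD DKO arrays were below all FAD arrays, but wild type spread over both ranges, and the change of -0.54 had an adjusted p of 0.555 (SE 0.211). Mir27a, its neighbour, overlapped between the groups, at -0.33 (adjusted p = 0.633).

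The cluster's remaining hairpin, Mir24-2, is covered by probe sets that also name the overlapping hairpin Mir3074-2. The brighter of these had 5.77, 5.89 and 5.70 on the wild type arrays, 6.02, 6.43 and 5.90 on the FAD arrays and 5.49, 4.97 and 4.31 on the FAD DKO arrays, and the dimmer one had group means of 5.42, 5.72 and 4.65. FAD DKO arrays were the lowest 3 on both. For the brighter, the change in FAD DKO minus FAD was -1.19 (SE 0.272) and in FAD DKO minus wild type -0.87, with limma adjusted p-values of 0.404 and 0.515 over all probe sets. A probe set of Mir24-1 with Mir3074-1, also above the limit, gave 0.10 in FAD DKO minus FAD (SE 0.204, limma adjusted p = 0.928). A dimmer probe set of the same symbols (mean 2.76) had group means of 2.71, 3.14 and 2.44. As these probe sets hold several symbols, they stand beside the 139 genes and not among them. Mir181c and Mir181d had changes of 0.06 and 0.20 in FAD DKO minus FAD, and Mir181a-2 and Mir181b-2 on chromosome 2, which share their seed, had 0.13 and 0.05, with adjusted p-values from 0.753 to 0.913.

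On chromosome 12, the imprinted region of Dlk1 and Meg3 holds a long series of microRNA genes, most of them known from neurons. From it came Mir673, Mir540 and Mir665, and, from a run of 29 hairpins further along, Mir758, Mir329, Mir494, Mir679, Mir666 and Mir667. None of them passed, and the largest change of the 9 genes in the groups was that of Mir329, at -0.41 in FAD minus wild type (SE 0.167, adjusted p = 0.578). The FAD arrays of Mir494 ranged from 4.67 to 6.12, the widest spread in the run. On chromosome 2, 10 genes of the Mir466, Mir467, Mir669 and Mir297 families, of a run of 72 related hairpins, reached the limit. Their changes lay between -0.27 and -0.03 in FAD minus wild type, and 0 of the 10 passed or had an unadjusted p under 0.05 there. Of all genes, 4.41% were higher and 4.02% lower at that threshold. In FAD DKO minus FAD, Mir467e was the 1 gene of the 10 with an unadjusted p under 0.05, at 0.36 (SE 0.126, adjusted p = 0.504). The shares of all genes there were 3.69% higher and 4.41% lower. Probes for such related hairpins can bind RNA of several copies, so these values were not assigned to single genes.

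**Figure D4:**
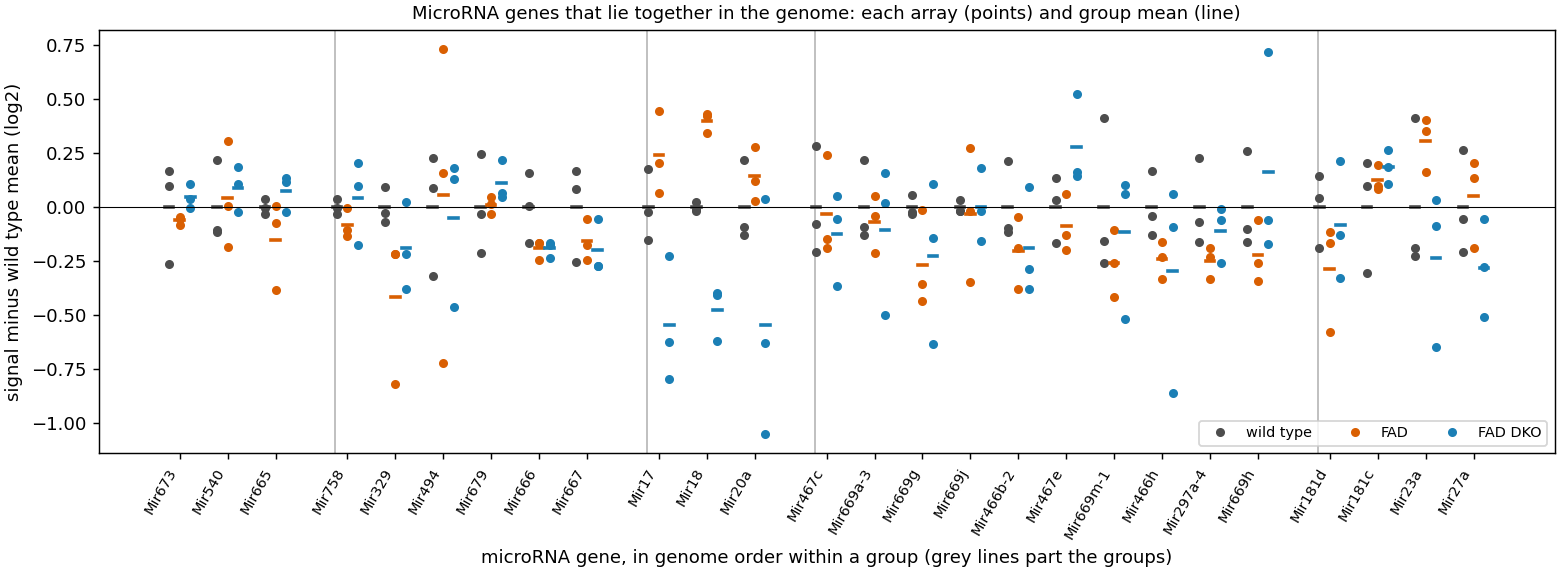
Log2 signal minus the wild type mean of the same gene (vertical axis) for the 26 microRNA genes of the 5 genomic groups, in genome order within each group, with 1 point per array and a short line for the group mean. The FAD DKO means of Mir17, Mir18 and Mir20a lie furthest below 0, and Mir18 is the gene whose 3 genotypes do not touch.

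MicroRNA genes known from microglia and immune cells were listed with earlier results in view. Of 44 names, 13 were among the 139 genes and 16 were measured under the limit. Mir142, a gene of the blood lineage whose product is abundant in microglia, had signals of 8.58, 8.24 and 8.22 on the wild type arrays, 8.00, 8.27 and 8.39 on the FAD arrays and 8.39, 7.88 and 7.81 on the FAD DKO arrays. The groups overlapped, and Mir142 gave -0.13 in FAD minus wild type, -0.19 from FAD to FAD DKO and -0.32 in FAD DKO against wild type (SE 0.172, adjusted p from 0.69 to 0.881). Mir15a and Mir16-1, known as brakes on Bcl2 and the cell cycle, had changes of at most 0.07 in either direction. Mir342, known from macrophages, gave -0.10, 0.03 and -0.07, and Mir99b, which lies near Mir125a, gave -0.08, 0.21 and 0.13. Mir212 gave -0.07, -0.04 and -0.12. Of the 13 genes, Mir18 alone passed in any comparison.

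Several well known inflammatory microRNAs were under the limit or had no probe set of their own. Mir146, which restrains Toll-like receptor signalling, had a mean of 3.57, Mir146b 4.96, Mir150 4.90, Mir29a 3.87 and Mir221 2.39. A probe set of Mir155, which promotes inflammatory activation, and its host Mir155hg had group means of 4.77, 4.69 and 4.85 in wild type, FAD and FAD DKO. The probe set for Mir223, a neutrophil microRNA, and a neighbouring gene had 4.11, 4.39 and 4.26. A probe set shared by Vmp1 and Mir21a had 7.69, 7.87 and 7.77, and also covers the messenger RNA of Vmp1. For each of these 3 shared probe sets the group means lay less than 0.3 apart. Of microRNA genes known from other cells, 2 of neurons (Mir9-3 and Mir124a-2) and 1 of red cells (Mir451a) reached the limit, with means of 6.17, 5.77 and 5.53, while 9 of neurons, 2 of oligodendrocytes, 1 of red cells and 1 of lymphocytes were below it. The groups of Mir9-3, Mir124a-2 and Mir451a overlapped in every comparison.

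Many microRNA genes lie inside other genes and can share their transcription. Of the 117 genes with a place in the RefSeq table, 57 lay inside the listed span of a gene on the same strand and 60 did not. The split follows the spans of that table and not known primary transcripts: the listed span of Mir17hg does not reach over Mir17, Mir18 and Mir20a, nor that of Mir99ahg over Mir99a, and these 4 genes count among the 60. The median change was -0.07 for those inside such a span and -0.05 for the others in FAD minus wild type, and 0.06 and 0.04 in FAD DKO minus FAD. The 48 measured host genes had median changes of 0.03, -0.01 and 0.02, in the order used for Mir142. In limma 0 hosts passed in each comparison. An unadjusted p under 0.05 was reached by 2 higher (4.17%; 4.41% of all genes) and 4 lower hosts (8.33%; 4.02%) in the first comparison, 2 (4.17%; 3.69%) and 1 (2.08%; 4.41%) in the second, and 2 (4.17%; 3.95%) and 2 (4.17%; 4.19%) in the last. Mir15a and its host Dleu2, a long noncoding RNA, had nearly the same changes in all comparisons (-0.06, 0.07 and 0.01 for Mir15a, and -0.05, 0.06 and 0.01 for Dleu2). Each change was smaller than its SE (0.111 for Mir15a and 0.0699 for Dleu2), so whether gene and host move together cannot be read from them.

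For other pairs the gene and its host differed in direction or size. Mir874 gave -0.48 and 0.46 in FAD minus wild type and FAD DKO minus FAD, while Klhl3, an adaptor of a ubiquitin ligase, gave 0.04 and 0.01. Mir1943 gave -0.26 and 0.49 beside 0.01 and -0.13 for Tmem184b. Mir3108 gave -0.39 and 0.24 beside -0.20 and 0.08 for the transcription factor gene Zfhx3. Mir5123 gave -0.50 in FAD DKO minus wild type beside -0.22 for B4galt1, a galactosyltransferase. In the opposite sense, Eng, an accessory receptor for TGF-beta ligands, gave -0.43 and 0.59 while Mir1954 inside it gave -0.11 and -0.04. Mir99ahg, the host transcript of Mir99a, had 8.38, 8.26 and 8.43 on the wild type arrays, 8.66, 8.46 and 8.49 on the FAD arrays and 8.35, 8.28 and 8.45 on the FAD DKO arrays. Its FAD arrays were above all others, and the changes were 0.18 and -0.18, while Mir99a gave -0.18 and -0.12. The difference between a gene and its host was not tested, and none of these values passed in limma.

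The genes that make and use microRNAs were read on the same arrays. Of 40 listed names, 33 matched a gene with a probe set of its own, and the median changes of these were 0.03, -0.04 and -0.03 in the same order. In limma 0 passed in each comparison. At an unadjusted p under 0.05 there were 2 higher (6.06%; 4.41% of all genes) and 1 lower (3.03%; 4.02%) in the first, 0 higher (3.69% of all genes) and 4 lower (12.1%; 4.41%) in the second, and 1 higher (3.03%; 3.95%) and 3 lower (9.09%; 4.19%) in the last. Drosha, which cuts the primary transcript, lay between 6.72 and 6.81 on all 9 arrays. Dicer1 lay between 7.92 and 8.13, and Xpo5, which encodes exportin 5, between 7.21 and 7.45. Ago2, the Argonaute that can cleave a target, had changes of 0.14, -0.07 and 0.07 (adjusted p from 0.669 to 0.871). The groups of these 4 genes were within 0.15 of each other by their means. Dgcr8 had 1 probe set, shared with Mir1306, with group means of 6.95, 7.04 and 6.96 and changes of 0.10, -0.08 and 0.02 (adjusted p from 0.812 to 0.977 over all probe sets).

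Ddx5, an RNA helicase that assists Drosha on a subset of primary transcripts, had the smallest p of the list. Its signals were 11.83, 11.80 and 11.78 on the wild type arrays, 11.71, 11.67 and 11.80 on the FAD arrays and 11.46, 11.49 and 11.46 on the FAD DKO arrays. All FAD DKO arrays were below all others. The change was -0.26 in FAD DKO minus FAD (SE 0.0617, adjusted p = 0.306) and -0.33 in FAD DKO minus wild type (adjusted p = 0.0952), and the latter passed when genes under 5.35 were left out (0.0246) or when the variance followed the level (0.0114). A probe set shared by Ddx5 and Mir3064 gave smaller changes in the same comparisons. These were -0.15 and -0.17 (limma adjusted p = 0.711 and 0.655 over all probe sets). Ncbp1, a subunit of the cap-binding complex, gave 0.23 in FAD minus wild type and -0.33 in FAD DKO minus FAD (adjusted p = 0.579 and 0.407). Ago4 gave 0.38 in FAD DKO minus wild type (SE 0.123, adjusted p = 0.428). Srsf3 gave -0.20 in FAD minus wild type and -0.17 in FAD DKO minus wild type (adjusted p = 0.508 and 0.558). Ran gave 0.30 in FAD minus wild type (adjusted p = 0.584). Tsnax gave -0.21 in FAD DKO minus FAD and -0.15 in FAD DKO minus wild type (adjusted p = 0.403 and 0.583). Xrn2 gave -0.21 in FAD DKO minus FAD (adjusted p = 0.513).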

How the data were processed

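The 9 arrays (3 per genotype) were analysed from the deposited value table. The authors deposited 1 log2 value for each probe set; the submitters' processing notes name RMA, a method of background correction, quantile normalization and summary, with no settings. Detection calls were not used here. Of 41345 probe sets, 23521 had 1 gene symbol in the probe annotation, and 23328 of these matched the RefSeq table of GRCm38.p6. The brightest probe set stood for a gene (22180 genes). Genotypes were compared with lmFit and eBayes of limma 3.58.1 (R 4.3.3), two-sided, with a mean per group in a fit of all 9 arrays, adjusted by Benjamini-Hochberg over all genes and called at an adjusted p under 0.05. The fit was tested on simulated data. The members and gene lists were chosen with earlier results of these data known, so lists are described by counts and medians without a test.

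The text names called members, the 8 smallest p per comparison, the 10 brightest, genes of the immune list, genes of genomic groups of 3 or more, their hosts, the genes next to the level limit, and of the biogenesis list 4 central genes and the smallest p-values. Mir1931, Mir7-1, the shared probe sets, Mir1954 with Eng, and the microRNAs of other cells outside that rule were chosen after their values were seen. Dgcr8 is read from a shared probe set. Mature sequences, hairpin positions and hosts come from RefSeq tables, which placed 117 of the 139 genes. Alternatives were a low-signal filter (mean at least 5.35), quantile normalization, a trended and robust variance, a fit of only the groups compared, weights per array, averaged probe sets, a fit of every probe set, the replicate number as a block, another level limit (6.79, the upper quartile), and each array left out. Python 3.11.15 and matplotlib 3.10.9 drew the figures.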

Additional observations from a re-analysis of the deposited data

How the results depend on the processing

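No direction reversed under any alternative run. For FAD DKO minus FAD, the count of called microRNA genes (1, Mir18) was 0 with only the groups compared, 0 with the replicate block (Mir18 adjusted p = 0.0925), and 0 to 1 when each array was left out; over all genes the calls numbered 5, with 11 under a low-signal filter, 12 under a trended and robust variance model, 3 under quantile normalization, 0 with only the groups compared, 2 under the block, 3 with every probe set and 0 to 5 with an array left out. For FAD DKO minus wild type the count of microRNA genes rose from 0 to 1 (Mir18, adjusted p = 0.0186) with a low-signal filter, 2 (Mir18, 0.0231, and Mir103-2, 0.0476) with a trended and robust variance model, and 1 (Mir18, 0.0410) with array weights; biogenesis genes rose from 0 to 1 (Ddx5) with the filter and 1 with the trended model, and calls over all genes went from 31 to 117, 124 and 82 with these settings, 13 with only the groups compared, 11 under the block, 8 with every probe set and 2 to 28 with an array left out. For FAD minus wild type the 9 calls over all genes became 33 with the filter, 43 with the trended model, 22 with array weights and 5 with only the groups compared, and microRNA genes stayed at 0. The median change of the microRNA genes ran from -0.09 to -0.04 in FAD minus wild type (-0.04 without wild type replicate 3) and from -0.07 to 0.00 in FAD DKO minus wild type when arrays were left out, and was 0.08 in FAD DKO minus FAD with the upper quartile as the level limit. With every group mean at the limit (133 genes, added after the data were seen) the medians were -0.07, 0.04 and -0.04. The cause of these differences was not tested. Over all genes, deviations of arrays with the same replicate number had correlations from -0.11 to 0.122 (9 pairs). For arrays of other numbers they ran from -0.189 to 0.129 (18 pairs). Correlations over all genes cannot show a batch that acts on few genes, and the labels do not say what the replicate number stands for. With 3 arrays per genotype and no detection calls, precision is limited by the number of arrays, and changes near the floor of the scale carry little information.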
